A study of Homo sapiens with 12 samples.

Results

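Imprinted genes that control growth were examined in human embryonic stem cells (hESCs) and in the endothelial and blood cells made from them, with and without an intact GATA2 gene. The 10 genes were H19, IGF2, CDKN1C, DLK1, MEG3, SNRPN, PEG10, MEST, GRB10 and PEG3, taken by gene symbol. They are 10 of 56266 genes in the deposited tables. The list was chosen with earlier results of these data known. Counts of its members beside the share of all genes therefore describe the list and are not tests. All cells came from H1, an established hESC line. The GATA2-/- cells are 1 clone of H1 in which TALENs and a targeting vector placed a neomycin resistance cassette at exon 3, and WT is H1 itself. Each genotype difference below is thus between this clone and H1, and genotype and clone cannot be told apart. Both lines were differentiated by co-culture with OP9, a mouse stromal cell line. Hemogenic endothelium (HE; CD34+CD31+CD43-), the endothelium from which blood cells bud, was sorted on day 8, and hematopoietic progenitor cells (HPCs; CD34+CD43+) on day 9. Expression was read from 10 RNA-Seq libraries, a pair each for GATA2-/- hESCs, WT HEs, GATA2-/- HEs, WT HPCs and GATA2-/- HPCs. The WT hESC libraries were not analysed here, so each change from the hESC stage was measured in GATA2-/- cells alone. The labels do not say that replicates were separate cultures, so p-values measure only the spread between these libraries.

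An imprinted gene is transcribed mainly from the copy inherited from 1 parent, directed by DNA methylation that was set in the egg or the sperm at a control region. Imprinted genes lie in domains that share a control region, so that neighbours often have opposite parental copies active. IGF2, a fetal growth factor, DLK1, a transmembrane inhibitor of differentiation, PEG10 and PEG3, MEST and SNRPN are active on the paternal copy. The noncoding RNAs H19 and MEG3 and the cyclin-dependent kinase inhibitor CDKN1C are active on the maternal copy, and many of these genes restrain or promote growth of the fetus and placenta. TPM adds up both copies, so nothing below measures which copy was read.

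The 10 genes lie in 7 places on 5 chromosomes (GENCODE, GRCh37). On chromosome 11, H19 (chr11:2016396-2025782, a noncoding RNA gene on the minus strand) and IGF2 (chr11:2150342-2179621, minus strand) are 124559 bases apart, and CDKN1C (chr11:2904443-2907005, minus strand) lies 724821 bases beyond IGF2. On chromosome 14, DLK1 (chr14:101192042-101204561) and MEG3 (chr14:101245747-101327368) are 41185 bases apart on the plus strand. SNRPN (chr15:25068784-25223870, plus strand) holds the whole of SNURF, a shorter gene on the same strand. PEG10 (chr7:94285637-94299007, plus strand) starts head to head with SGCE and shares 248 bases with it. MEST (chr7:130126012-130146306, plus strand) and GRB10 (chr7:50657760-50861159, minus strand) lie in separate places on the same chromosome. PEG3 (chr19:57321445-57352096, minus strand) lies wholly within the annotated ZIM2 gene on the same strand. The library kit does not mark strand, so reads from overlapping genes such as these pairs could be assigned to either.

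H19 and IGF2 compete for shared enhancers, and the control region between them works through CTCF, a protein that binds its unmethylated copy and insulates IGF2. The sequence that carries this control is shown because both genes of the pair are followed below. The core of the CTCF motif, CCGCGN followed at once by GGNGGCAG, was searched on both strands of chr11:2016001-2027000 and had 5 matches, all on the minus strand and all in introns annotated to H19. They are 5 of 21 matches on the whole of chromosome 11, where 0.151% of 11910 windows of 11000 bases held any match. Each is given 5′ to 3′ on the minus strand with the core in capitals.
CTCF core match 1, chr11:2021190-2021219: ggaagtggCCGCGCGGCGGCAGtgcaggct
CTCF core match 2, chr11:2022002-2022031: ggaagtggCCGCGTGGCGGCAGtgcaggct
CTCF core match 3, chr11:2023435-2023464: aaaagtggCCGCGCGGCGGCAGtgcaggct
CTCF core match 4, chr11:2023836-2023865: ggaagtggCCGCGCGGCGGCAGtgcaggct
CTCF core match 5, chr11:2024241-2024270: agaagtggCCGCGCGGCGGCAGtgcaggct
The flanks of the 5 repeats are also alike, and all 5 cores hold CpG, the dinucleotide that carries the methylation. No methylation was measured in these libraries.

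RefSeq promoters (GRCh38.p14, 250 bases before to 50 after a start) were held for 5 of the 10 genes, H19, MEG3, SNRPN, GRB10 and MEST, at 18 starts. The MEG3 promoter is shown because MEG3 was listed at 0 in every GATA2-/- HPC library, and its cAMP response element TGACGTCA, which 1.85% of 35116 promoters hold on either strand, is in capitals.
MEG3 promoter, plus strand, chr14:100825858-100826157: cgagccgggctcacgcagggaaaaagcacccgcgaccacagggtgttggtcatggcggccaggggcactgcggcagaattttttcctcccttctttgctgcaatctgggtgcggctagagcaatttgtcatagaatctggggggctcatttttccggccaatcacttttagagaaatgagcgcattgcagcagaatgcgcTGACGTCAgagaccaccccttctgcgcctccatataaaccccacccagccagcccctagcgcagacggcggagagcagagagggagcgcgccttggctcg
The promoter that SNRPN shares with SNURF is shown because both genes fell together from the hESC stage, and its 18 CpG are in capitals. A promoter in this collection held 14 CpG at the median.
SNRPN and SNURF promoter, plus strand, chr15:24954737-24955036: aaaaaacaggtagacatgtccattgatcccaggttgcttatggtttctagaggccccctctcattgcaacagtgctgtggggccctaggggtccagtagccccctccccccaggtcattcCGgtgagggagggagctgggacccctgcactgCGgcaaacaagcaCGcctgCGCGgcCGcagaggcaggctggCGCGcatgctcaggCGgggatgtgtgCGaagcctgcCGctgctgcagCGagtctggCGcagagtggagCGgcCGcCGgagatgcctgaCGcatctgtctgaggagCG
The promoter at the only H19 start in this collection is shown beside it because it holds only 6 CpG. Other starts of H19 are not covered, so the CpG count is for this start alone. Its GRCh38 position cannot be read directly against the GRCh37 positions of the CTCF matches.
H19 promoter, minus strand, chr11:2001217-2001516: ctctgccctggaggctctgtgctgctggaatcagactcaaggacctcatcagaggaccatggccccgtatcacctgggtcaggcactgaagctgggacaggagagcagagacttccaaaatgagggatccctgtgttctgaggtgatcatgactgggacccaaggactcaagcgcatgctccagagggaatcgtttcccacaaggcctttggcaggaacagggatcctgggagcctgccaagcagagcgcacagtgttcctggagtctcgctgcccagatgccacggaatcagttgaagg
GATA factors bind the letters GATA in the forms AGATAA and AGATAG, or the same with T in first place. On either strand these forms were found in 5 of the 18 promoters (1 of GRB10, 2 of MEST and 2 of SNRPN) and in 25.0% of all promoters. The promoters printed above held none of them.

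The sorted populations carried the markers of their labels. Summed TPM of 12 endothelial markers was 5216 to 6551 in HEs, 1134 to 1544 in HPCs and 103 to 121 in hESCs. Pluripotency markers (8 genes) summed to 5522 and 6278 in hESCs and to 225 to 377 in the other libraries, where LIN28A held 97.1 to 244 TPM of it. Pan-hematopoietic markers (10 genes) summed to 1562 to 2072 in HPCs, but PTPRC, which encodes CD45, was at 0.68 to 3.09 TPM there. In HEs they summed to 359 and 281.5 in WT and 233 and 132 in GATA2-/- cells. Erythroid markers (12 genes) summed to 194 and 120 in WT HEs and 49.4 and 34.4 in GATA2-/- HEs. Of either list 0 genes passed between genotypes in HEs (0.0186% of all genes). The part of these markers in the genotype comparisons was not tested. GATA2 itself was at 107 and 78.0 TPM in WT HEs, 111 and 94.1 in GATA2-/- HEs, 290 and 204 in WT HPCs and 112.5 and 83.8 in GATA2-/- HPCs. Its gene-level TPM also counts reads outside the disrupted exon and therefore does not check the genotype. In the file headers, replicate 2 of every HE and HPC group carries a numeric tag and replicate 1 carries none. The headers of the GATA2-/- hESC libraries, on which every change from hESCs rests, carry another tag. It starts with H1 and differs between these libraries. Their genotype was read from the sample titles, and GATA2, at 2.05 and 5.54 TPM in them, does not check it. The meaning of these tags is not stated, and values within each replicate number are given where the genotypes are compared. Mitochondrial transcripts held 15.1% and 14.8% of TPM in GATA2-/- HPCs, and 8.66% and 9.61% in WT HPCs.

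Most of the tested genes passed the threshold in at least 1 comparison of stages, and MEG3 passed in none. Changes are fitted differences on the log2(TPM + 1) scale with their standard error (SE) from limma, over 2 libraries a group, and the p is adjusted over 21543 genes. The test covered 9 of the 10 genes, because PEG3 was at 0 throughout. MEG3 entered only through its WT libraries. From GATA2-/- hESCs to GATA2-/- HEs, 7 of the 9 passed the threshold of 0.05, against 30.0% of all tested genes. H19, IGF2, DLK1 and CDKN1C rose (4 of 9, and 13.9% of all genes), and PEG10, SNRPN and MEST fell (3 of 9, and 16.1%). From HEs to HPCs, 5 of 9 passed in WT cells (9.91% of all genes) and 4 of 9 in GATA2-/- cells (12.7%). DLK1 and MEST rose in both genotypes (2 of 9, against 3.32% of all genes in WT and 5.50% in GATA2-/- cells). PEG10 and GRB10 fell in both, and H19 also passed in WT (3 of 9 against 6.59% in WT, 2 of 9 against 7.24% in GATA2-/- cells). Against GATA2-/- hESCs, GATA2-/- HPCs had 6 of 9 past the threshold (30.6% of all genes), 4 that rose (14.2% of all genes) and 2 that fell (16.4%), the genes named for HEs without MEST. Between genotypes, limma called 0 of 9 in HEs (0.0186% of all tested genes) and 0 of 9 in HPCs (0.0603%).

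**Figure D1:**
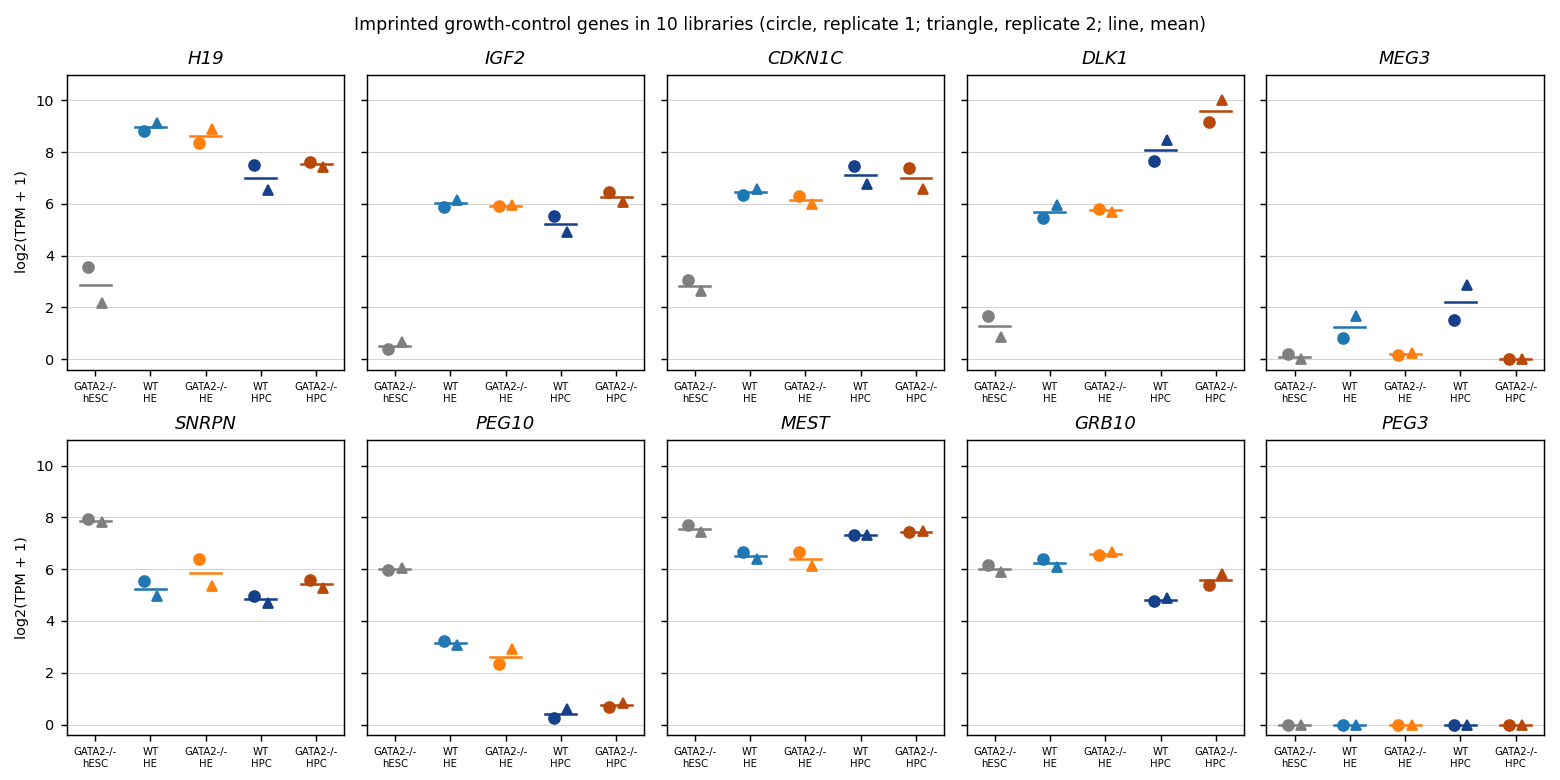
Level of each gene as log2(TPM + 1) (vertical axis) in the 5 groups (horizontal axis). A circle is replicate 1, a triangle is replicate 2 and a line is their mean. H19, IGF2, CDKN1C and DLK1 are low in hESCs and high later, SNRPN and PEG10 are highest in hESCs, and PEG3 is at 0 in all 10 libraries.

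H19, the maternal noncoding RNA, was the most abundant of the 10 genes in every HE library. Its level was 10.8 and 3.47 TPM in GATA2-/- hESCs, 448 and 558 in WT HEs, 326 and 480 in GATA2-/- HEs, 179 and 92.5 in WT HPCs, and 197 and 172 in GATA2-/- HPCs. Every HE library was above every HPC library, and every HPC library was above both hESC libraries. H19 rose from GATA2-/- hESCs to HEs by 5.77 ± 0.45 (adjusted p = 3.51e-05), a 56.4-fold ratio of mean TPM. In WT cells it then fell by 1.95 ± 0.45 from HEs to HPCs (adjusted p = 0.0281), and in GATA2-/- cells the difference was -1.10 ± 0.45 (adjusted p = 0.159). The WT call was lost without WT HE replicate 1 (adjusted p = 0.101), WT HE replicate 2 (0.160), WT HPC replicate 2 (0.178) or either GATA2-/- HPC library (0.0530 and 0.0528), within a range of 0.0285 to 0.269 over 19 alternatives. The difference between the genotypes in this fall was not called (0.85 ± 0.64, adjusted p = 0.911). Endothelial markers were lower in HPCs than in HEs as well, by the sums given above, and 14 mesenchymal or stromal markers summed to 1082 to 1287 TPM in HEs, 168 to 348 in HPCs and 768 to 1271 in hESCs. Between 9 and 12 of the 14 were at 1 TPM or more in HEs and HPCs, COL1A1, COL1A2 and THY1 among them, while LUM was at 0 in 3 of the 4 HPC libraries. THY1 alone was at 423 to 532 TPM in HEs. Of the 13 stromal markers tested, 4 fell from HEs to HPCs in WT cells (6.59% of all genes) and POSTN rose (3.32%). In GATA2-/- cells 4 fell (7.24% of all genes) and 0 rose (5.50%). The part of endothelial and stromal markers in the H19 result was not tested. In such bulk libraries, fewer cells of a type and less RNA per cell cannot be told apart.

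IGF2, the growth factor paired with H19, was near 0 in hESCs and present at both later stages. It was at 0.32 and 0.57 TPM in GATA2-/- hESCs, 57.2 and 71.1 in WT HEs, 59.3 and 60.9 in GATA2-/- HEs, 45.1 and 29.1 in WT HPCs, and 87.6 and 65.8 in GATA2-/- HPCs. The WT HPC libraries were the lowest of the 8 differentiated libraries. The WT HE range held both GATA2-/- HE libraries and reached into the GATA2-/- HPC range, while both GATA2-/- HPC libraries were above both GATA2-/- HE libraries. IGF2 rose from GATA2-/- hESCs to HEs by 5.41 ± 0.26 (adjusted p = 3.03e-06), and stood 5.74 ± 0.26 above hESCs in GATA2-/- HPCs (adjusted p = 2.44e-06). Between HEs and HPCs the values were -0.80 ± 0.26 in WT cells (adjusted p = 0.0963) and 0.33 ± 0.26 in GATA2-/- cells (adjusted p = 0.472). In HPCs the genotypes did not overlap, and the GATA2-/- value was higher by 1.04 ± 0.26 (unadjusted p = 0.00309 from limma), which missed the threshold (adjusted p = 0.275, 0.217 to 0.637 over 19 alternatives). The ratio of GATA2-/- to WT was 1.94 between the HPC libraries of replicate 1 and 2.26 between those of replicate 2, while in HEs it was 1.04 and 0.858. The difference of these genotype effects was 1.13 ± 0.37 (unadjusted p = 0.0134, adjusted p = 0.699).

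The levels of H19 and IGF2 are set side by side because TPM is per length. IGF2 shares 25854 bases with the annotated gene INS-IGF2 on the same strand, while H19 overlaps no annotated gene. How reads were divided there is not known, so the ratio of H19 to IGF2 may be affected. In HEs H19 exceeded IGF2 by 5.49 to 7.88 times. The ratio was 3.96 and 3.17 in WT HPCs and 2.25 and 2.62 in GATA2-/- HPCs, so no HPC library reached the lowest HE library. In hESCs the ratio (33.8 and 6.09) rests on an IGF2 level under 1 TPM. PLAGL1, an imprinted zinc finger gene on chromosome 6 whose product is known to activate the H19 and IGF2 genes, was at 0.72 and 1.13 TPM in hESCs, 64.7 to 80.9 in HEs and 42.3 to 55.8 in HPCs. PLAGL1 rose from GATA2-/- hESCs to HEs by 5.20 ± 0.20 (adjusted p = 1.24e-06). Across the 10 libraries, which share these stages, Pearson's r of PLAGL1 on the log2 scale was 0.958 with H19 and 0.988 with IGF2. INS, the next gene beyond IGF2, was at 0 in all 10 libraries, and IGF2-AS, which overlaps IGF2 on the other strand, did not exceed 0.76 TPM.

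CDKN1C, the imprinted cyclin-dependent kinase inhibitor p57, rose together with H19 and IGF2 from the hESC stage. It was at 7.24 and 5.23 TPM in GATA2-/- hESCs, 81.3 and 93.9 in WT HEs, 77.9 and 62.2 in GATA2-/- HEs, 176 and 107 in WT HPCs, and 167 and 94.1 in GATA2-/- HPCs. All 4 HPC libraries were above all 4 HE libraries, by a narrow gap. The rise from GATA2-/- hESCs to HEs was 3.30 ± 0.32 (adjusted p = 0.000113) and to HPCs 4.14 ± 0.32 (adjusted p = 3.64e-05). Between HEs and HPCs the values were 0.65 ± 0.32 in WT cells (adjusted p = 0.288) and 0.84 ± 0.32 in GATA2-/- cells (adjusted p = 0.131). In both genotypes the HPC library of replicate 1 was the higher of the pair. The genotype differences were -0.32 ± 0.32 in HEs and -0.13 ± 0.32 in HPCs, with adjusted p of 1 and 0.954. KCNQ1OT1, the noncoding RNA that controls CDKN1C from within the KCNQ1 gene, stayed between 0.72 and 2.36 TPM.

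DLK1 showed the widest range of the 10 genes and was their most abundant member in HPCs. Its level was 2.19 and 0.82 TPM in GATA2-/- hESCs, 43.0 and 60.5 in WT HEs, 54.3 and 51.1 in GATA2-/- HEs, 202 and 356 in WT HPCs, and 579.8 and 1022 in GATA2-/- HPCs. The 3 stages did not overlap, the HE groups overlapped each other, and both GATA2-/- HPC libraries were above both WT HPC libraries. DLK1 ranked 147 and 208 among all genes of the GATA2-/- HPC libraries and 326 and 625 in WT HPCs. It rose by 4.48 ± 0.38 from GATA2-/- hESCs to HEs (adjusted p = 5.58e-05), by 2.37 ± 0.38 from WT HEs to WT HPCs (adjusted p = 0.00542) and by 3.84 ± 0.38 from GATA2-/- HEs to GATA2-/- HPCs (adjusted p = 0.000524). The WT call was lost without WT HE replicate 1 (adjusted p = 0.0526) or WT HPC replicate 2 (0.0533), within a range of 0.00331 to 0.107 over 19 alternatives.

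Between genotypes, DLK1 was 2.87-fold higher in mean TPM in GATA2-/- HPCs than in WT HPCs. The fitted difference was 1.52 ± 0.38 (95% interval 0.65 to 2.38, unadjusted p = 0.00335 from limma), and it missed the threshold (adjusted p = 0.277, 0.216 to 0.658 over 19 alternatives). The ratio was 2.87 between the libraries of replicate 1 and 2.87 between those of replicate 2. In HEs the difference was 0.05 ± 0.38, and the difference of these genotype effects was 1.47 ± 0.54 (unadjusted p = 0.0236, adjusted p = 0.755).

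Red cell transcripts varied in the same libraries. The 6 globin genes of the erythroid list summed to 4475 and 13739 TPM in WT HPCs and 7011 and 15662 in GATA2-/- HPCs, and to 19.1 to 53.0 in HEs. The whole list of 12 erythroid markers summed to 5594 and 15045 in WT HPCs and 8540 and 16809 in GATA2-/- HPCs, with 10 to 12 of the 12 at 1 TPM or more and AHSP at 0 in 3 of the 4 libraries. In both genotypes the library with more globin, which was replicate 2, had more DLK1. Across genotypes the order was not kept. WT HPC replicate 2 had 13739 TPM of globin and 356 of DLK1, and GATA2-/- HPC replicate 1 had 7011 and 579.8. Pearson's r of DLK1 with HBE1 was 0.902 over the 10 libraries, which share their stages. The part of red cell transcripts in the DLK1 result was not tested.

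**Figure D2:**
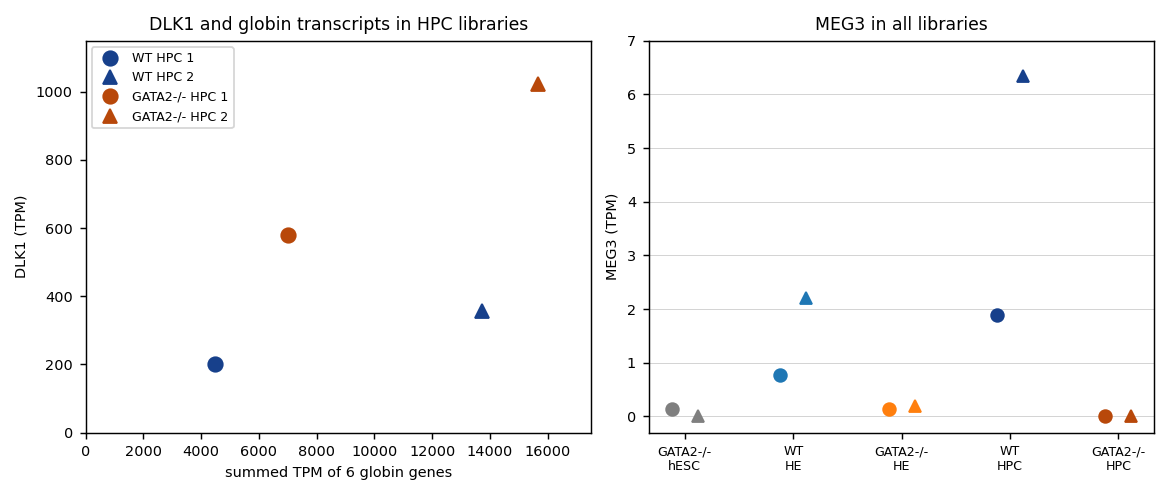
Left, DLK1 (TPM, vertical axis) against the summed TPM of 6 globin genes (horizontal axis) in the 4 HPC libraries, both axes from 0. Right, MEG3 (TPM) in all 10 libraries by group, circles for replicate 1 and triangles for replicate 2. Both GATA2-/- HPC libraries (579.8 and 1022 TPM of DLK1) lie above both WT HPC libraries, and both hold MEG3 at 0.

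MEG3, the maternal noncoding RNA next to DLK1, was low everywhere and seen mainly in WT cells. It was at 0.14 and 0 TPM in GATA2-/- hESCs, 0.77 and 2.20 in WT HEs, 0.13 and 0.19 in GATA2-/- HEs, and 1.89 and 6.35 in WT HPCs, and it was listed at 0 in both GATA2-/- HPC libraries. All 4 WT libraries were above all 6 GATA2-/- libraries. The fitted difference between genotypes was -1.04 ± 0.49 in HEs (unadjusted p = 0.0658, adjusted p = 1) and -2.20 ± 0.49 in HPCs (unadjusted p = 0.00167, adjusted p = 0.238, 0.190 to 0.599 over 19 alternatives), neither past the threshold. MEG3 reached 1 TPM only in WT libraries and entered the test through them alone, which favours a difference in this direction. Neither the order of the libraries nor these p-values are therefore support for one. The HPC value depends on the pseudocount, being -5.16 with a pseudocount of 0.1 in place of 1, and no fold is given against libraries at 0. The read depth is unknown, so a listed 0 does not bound the level. Of 10 genes that every cell uses, none was at 0 in any library. Their lowest value was 112.5 TPM, so they do not bear on a listed 0 of a low gene such as MEG3. GATA2-/- hESCs, which had not been differentiated, were also at or under 0.14 TPM, and without WT hESC libraries the genotype cannot be compared at that stage.

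Other genes of the same domain behaved differently. DIO3, which encodes an enzyme that inactivates thyroid hormone, was at 12.04 and 15.4 TPM in WT HEs, 2.04 and 12.5 in GATA2-/- HEs, 0 and 0.18 in WT HPCs, 1.23 and 0 in GATA2-/- HPCs, and 0.34 and 0 in hESCs. It fell from WT HEs to WT HPCs by 3.75 on the log2 scale (SE 0.68, adjusted p = 0.00945), where DLK1 rose. MEG8 was at 0 in all 10 libraries and RTL1 did not exceed 0.18 TPM. MEG9 was at 0.42 to 2.04 TPM in hESCs and HEs and at 0 in all 4 HPC libraries of both genotypes. In HPC libraries none of these 4 genes exceeded 1.23 TPM.

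SNRPN, which encodes a spliceosome protein and lies in the domain of Prader-Willi syndrome, was the most abundant of the 10 genes in hESCs. It was at 246 and 224 TPM in GATA2-/- hESCs, 45.3 and 29.9 in WT HEs, 82.5 and 40.1 in GATA2-/- HEs, 30.5 and 25.1 in WT HPCs, and 47.1 and 37.8 in GATA2-/- HPCs. Only the hESC libraries stood apart from the rest. SNRPN fell by 2.01 on the log2 scale from GATA2-/- hESCs to HEs (SE 0.33, adjusted p = 0.00202, or 0.0545 with only these 4 libraries fitted) and the hESC to HPC difference was -2.45 ± 0.33 (adjusted p = 0.000692). In both HEs and HPCs the GATA2-/- library was the higher within each replicate number, by 1.82 and 1.34 times in HEs and 1.55 and 1.51 times in HPCs. The fitted differences, 0.63 ± 0.33 in HEs and 0.59 ± 0.33 in HPCs, had adjusted p of 1 and 0.649.

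Its domain partners fell with it. SNURF, read from the same promoter, went from 938 and 1010.4 TPM in hESCs to 166 to 188 in HEs and 137 to 160.3 in HPCs, a fall of 2.45 ± 0.13 on the log2 scale from GATA2-/- hESCs to HEs (adjusted p = 5.48e-06). SNHG14, the long noncoding RNA downstream that hosts small nucleolar RNAs, went from 413 and 358 TPM to 64.4 to 97.3 in HEs and 48.4 to 90.1 in HPCs, a fall of 2.39 ± 0.28 (adjusted p = 0.000287). SNURF and SNRPN overlap on the same strand, and how reads were divided between them is not known. The ratio of SNURF to SNRPN was 2.01 to 5.94 across libraries. In HEs it was 4 and 5.78 in WT and 2.01 and 4.70 in GATA2-/- cells. In HPCs it was 5.26 and 5.94 in WT and 3.23 and 3.63 in GATA2-/- cells. The genotype differences of SNURF were 0.00 ± 0.13 in HEs and -0.09 ± 0.13 in HPCs, and those of SNHG14 were -0.13 ± 0.28 and 0.35 ± 0.28. The part of read division in the SNRPN difference was not tested. UBE3A, the Angelman syndrome gene of the same domain, stayed between 22.6 and 36.99 TPM in all 10 libraries, and NDN, a paternally active gene, was at 18.2 to 24.2 in hESCs and HEs and 6.82 to 12.6 in HPCs.

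PEG10, derived from a retrotransposon and needed in the placenta, fell at each step. Its level was 61.8 and 65.9 TPM in GATA2-/- hESCs, 8.48 and 7.5 in WT HEs, 4.0 and 6.5 in GATA2-/- HEs, 0.18 and 0.51 in WT HPCs, and 0.61 and 0.80 in GATA2-/- HPCs. No group overlapped another. From GATA2-/- hESCs to HEs it fell by 3.40 ± 0.32 on the log2 scale (adjusted p = 9.72e-05), a 12.2-fold ratio of mean TPM. It then fell by 2.75 ± 0.32 in WT cells (adjusted p = 0.00120) and by 1.85 ± 0.32 in GATA2-/- cells (adjusted p = 0.00651) at the step to HPCs. The GATA2-/- call was lost without GATA2-/- HE replicate 2 (adjusted p = 0.0586, 0.00477 to 0.109 over 19 alternatives). Between genotypes the values were -0.55 ± 0.32 in HEs (adjusted p = 1) and 0.35 ± 0.32 in HPCs (adjusted p = 0.768), the latter at under 1 TPM.

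SGCE, the paternally active gene that starts head to head with PEG10, had the same order of stages. It was at 21.4 and 14.95 TPM in hESCs, 5.31 and 5.62 in WT HEs, 4.49 and 2.51 in GATA2-/- HEs, 0 in both WT HPC libraries, and 0.16 and 0 in GATA2-/- HPCs. SGCE fell by 2.11 ± 0.37 from GATA2-/- hESCs to HEs (adjusted p = 0.00280), and from HEs to HPCs by 2.69 ± 0.37 in WT cells (adjusted p = 0.00249) and fell by 2.03 ± 0.37 in GATA2-/- cells (adjusted p = 0.00791). Over the 10 libraries, r of PEG10 with SGCE was 0.966 on the log2 scale. PPP1R9A, farther along, did not follow them into HPCs, being at 0.66 to 1.07 TPM in HEs and 0.87 to 3.39 in HPCs.

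**Figure D3:**
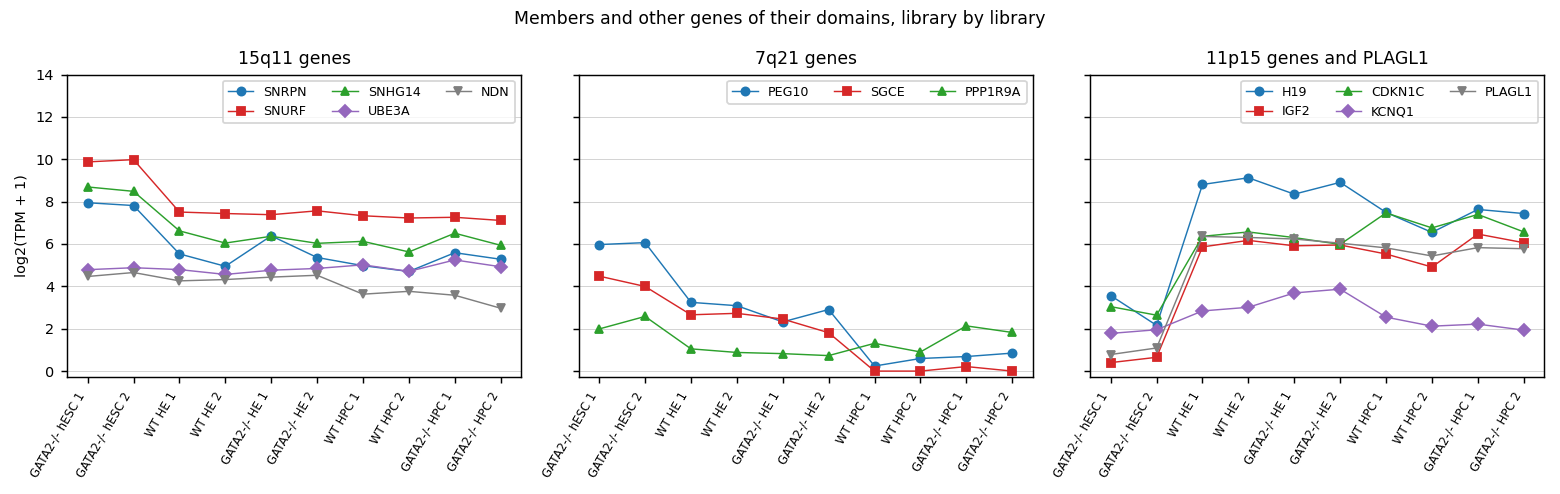
Log2(TPM + 1) (vertical axis) of 5 genes of the SNRPN domain, 3 of the PEG10 domain, and H19, IGF2, CDKN1C, KCNQ1 and PLAGL1, in each of the 10 libraries (horizontal axis), 1 line per gene. SNRPN, SNURF and SNHG14 drop after hESCs while UBE3A stays level, PEG10 and SGCE drop after hESCs and again after HEs, and PLAGL1 rises after hESCs beside IGF2.

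MEST, which encodes a hydrolase-like protein of mesoderm, dipped in HEs. It was at 209 and 171 TPM in GATA2-/- hESCs, 100.5 and 82.7 in WT HEs, 99.3 and 69.3 in GATA2-/- HEs, 159 and 161 in WT HPCs, and 171 and 175 in GATA2-/- HPCs. All HE libraries were below all others, and hESCs and GATA2-/- HPCs overlapped. MEST fell by 1.18 ± 0.20 on the log2 scale from GATA2-/- hESCs to HEs (adjusted p = 0.00220, or 0.0544 with only these 4 libraries fitted). MEST then rose into HPCs, by 0.80 ± 0.20 in WT cells (adjusted p = 0.0356) and by 1.05 ± 0.20 in GATA2-/- cells (adjusted p = 0.00926). The WT call was lost when any library except the GATA2-/- HE pair was left out: the adjusted p was 0.0644 and 0.0645 without hESC replicate 1 or 2, 0.0786 and 0.199 without WT HE replicate 1 or 2, 0.118 and 0.143 without WT HPC replicate 1 or 2, and 0.0574 and 0.0572 without GATA2-/- HPC replicate 1 or 2 (0.00747 to 0.202 over 19 alternatives). The GATA2-/- call was lost without GATA2-/- HE replicate 2 (adjusted p = 0.0635) or GATA2-/- HPC replicate 2 (0.0583), within 0.00151 to 0.117. COPG2, whose end overlaps the end of MEST on the other strand, ranged from 53.8 to 94.4 TPM.

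GRB10, an adaptor that restrains insulin and IGF receptor signalling, was lowest in HPCs. It was at 69.8 and 59.1 TPM in GATA2-/- hESCs, 82.1 and 67.8 in WT HEs, 92.2 and 100.4 in GATA2-/- HEs, 26.1 and 28.7 in WT HPCs, and 40.9 and 54.8 in GATA2-/- HPCs. Within each differentiated stage both GATA2-/- libraries were above both WT libraries. GRB10 fell from HEs to HPCs by 1.41 ± 0.19 in WT cells (adjusted p = 0.00258) and by 1.01 ± 0.19 in GATA2-/- cells (adjusted p = 0.0107). The GATA2-/- call was lost without GATA2-/- HE replicate 2 (adjusted p = 0.0772) or GATA2-/- HPC replicate 1 (0.0602), within 0.0119 to 0.104 over 19 alternatives. From GATA2-/- hESCs to HEs the difference was 0.58 ± 0.19 (adjusted p = 0.0532), which passed without GATA2-/- HPC replicate 1 (0.0392) or replicate 2 (0.0397), within 0.0392 to 0.212. The genotype differences were 0.36 ± 0.19 in HEs (unadjusted p = 0.0962, adjusted p = 1) and 0.77 ± 0.19 in HPCs (unadjusted p = 0.00355, adjusted p = 0.277, 0.217 to 0.595). The ratio of GATA2-/- to WT in HPCs was 1.57 within replicate 1 and 1.91 within replicate 2.

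PEG3, a zinc finger gene active on the paternal copy, was listed at 0 in all 10 libraries. ZIM2, which shares its annotated span, was also at 0 in all 10. Since the depth is unknown, these values say only that neither gene was given any abundance in the deposited tables.

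The fitted changes are plotted by comparison.

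**Figure D4:**
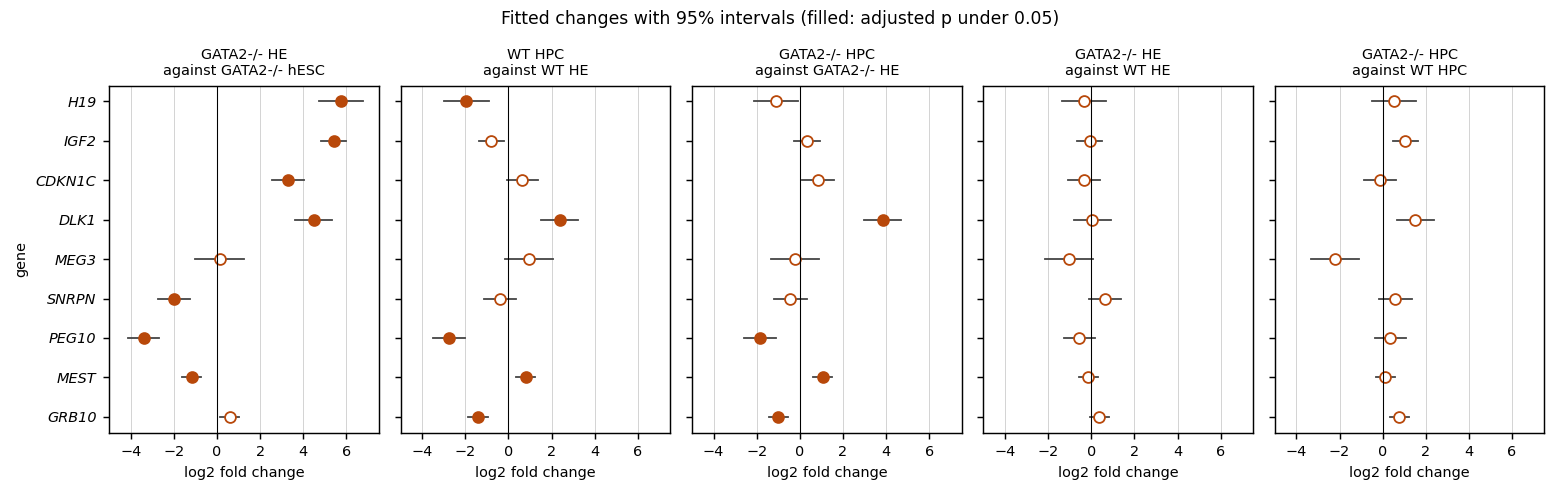
Fitted log2 fold change (horizontal axis, on the log2(TPM + 1) scale) of the 9 tested genes (vertical axis) in 5 comparisons. Points are estimates from limma over 2 libraries a group, lines are 95% intervals, and filled points have an adjusted p under 0.05. The stage comparisons hold filled points in both directions, and the genotype comparisons hold none.

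None of the 9 tested genes passed the adjusted threshold between genotypes at either stage. The genes were chosen with earlier results of these data known, so the counts that follow only describe them. In HEs 0 of the 9 had an unadjusted p under 0.05 (4.85% of all genes). The HE libraries did not overlap between genotypes for 1 gene that was higher in GATA2-/- cells (GRB10; 13.8% of all genes) and 3 that were lower (MEG3, PEG10 and CDKN1C; 16.5%). In HPCs 4 of 9 had an unadjusted p under 0.05, IGF2, MEG3, DLK1 and GRB10 (8.94% of all genes). MEG3 passed the filter only through WT libraries, which favours a difference in this direction, so its place in these counts is no support for one. Both GATA2-/- HPC libraries were above both WT libraries for 6 of 9 (IGF2, DLK1, PEG10, GRB10, SNRPN and MEST), against 19.7% of all tested genes, and below them for MEG3 alone, against 13.0%. The median fitted difference of the 9 in HPCs was 0.52, against 0.05 over all tested genes. With mitochondrial and globin genes left out of the scaling, the median of all genes in this comparison was 0.14, and IGF2, DLK1 and GRB10 stood 1.00, 1.48 and 0.73 above that shift. The difference of genotype effects between HPCs and HEs was called for 0 of 9, as for 0% of all tested genes, with an unadjusted p under 0.05 for IGF2 and DLK1 (2 of 9, against 5.95%).

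Other imprinted genes were read from a list of 53 neighbours and further imprinted loci, of which 49 were in the files and 34 were tested. In both genotype comparisons 0 of 34 passed (0.0186% of all genes in HEs and 0.0603% in HPCs), with medians of 0.07 in HEs and 0.07 in HPCs. From GATA2-/- hESCs to HEs, 9 of 34 rose and 8 fell (13.9% and 16.1% of all genes). OSBPL5, a lipid transfer gene of the CDKN1C region, rose by 2.22 ± 0.34 (adjusted p = 0.00140) and DIO3 by 2.47 ± 0.68 (adjusted p = 0.0238). From HEs to HPCs, 1 rose and 5 fell in WT cells (3.32% and 6.59% of all genes), and 1 rose and 6 fell in GATA2-/- cells (5.50% and 7.24%), with medians of -0.44 and -0.36. NNAT, a membrane proteolipid gene, fell in both genotypes, by 2.46 ± 0.37 (adjusted p = 0.00392) and 2.55 ± 0.37 (adjusted p = 0.00266), from 95.1 to 182 TPM in HEs to 19.3 to 25.8 in HPCs. PHLDA2, a placental growth inhibitor beside CDKN1C, fell by 2.14 ± 0.44 in GATA2-/- cells (adjusted p = 0.0146), from 25.3 and 18.3 TPM to 4.82 and 3.52. The single gene that rose was SLC22A18 in WT cells (1.55 ± 0.30, adjusted p = 0.0130) and L3MBTL1 in GATA2-/- cells (1.61 ± 0.33, adjusted p = 0.0137).

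IGF signalling genes other than IGF2 (16 listed, 13 tested) mostly did not pass between HEs and HPCs. In WT cells 3 of 13 fell and 0 rose (6.59% and 3.32% of all genes), and in GATA2-/- cells 3 fell and 1 rose (7.24% and 5.50%), with medians of -0.62 and -0.45. The 3 were the same in both, the IGF binding proteins IGFBP2, IGFBP4 and IGFBP6. IGFBP2 went from 1017 to 1538 TPM in HEs to 259.7 to 343 in HPCs, and IGFBP4 from 1078 to 1288 to 108 to 224. IGFBP4 fell by 2.74 ± 0.30 in WT cells (adjusted p = 0.000910) and by 3.20 ± 0.30 in GATA2-/- cells (adjusted p = 0.000446). IRS2, an adaptor of both receptors, rose by 1.46 ± 0.34 in GATA2-/- cells (adjusted p = 0.0250). IGF1R, the receptor of IGF2, was at 8.55 to 19.5 TPM in all 10 libraries, and IGF2R, which clears IGF2, at 10.5 to 34.0. From GATA2-/- hESCs to HEs, 4 of 13 rose and 3 fell (13.9% and 16.1% of all genes). IGFBP4 rose by 3.56 ± 0.30 (adjusted p = 5.31e-05), IGFBP5 by 3.20 ± 0.73 (adjusted p = 0.0107) and IGFBP7 by 3.67 ± 0.67 (adjusted p = 0.00338). GRB7 and GRB14, relatives of GRB10, fell by 4.12 ± 0.41 (adjusted p = 0.000126) and 2.04 ± 0.43 (adjusted p = 0.00728), where GRB10 did not pass. No gene of this list passed in a genotype comparison (0.0186% of all genes in HEs and 0.0603% in HPCs).

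Among 12 tested cyclins, kinases and inhibitors of G1, CDKN1C aside, 4 rose and 1 fell from GATA2-/- hESCs to HEs (13.9% and 16.1% of all genes). CDKN1B, which encodes the related inhibitor p27, rose by 1.4 ± 0.20 (adjusted p = 0.00106), CDKN2D by 1.37 ± 0.26 (adjusted p = 0.00392) and the cyclin gene CCND1 by 3.18 ± 0.49 (adjusted p = 0.00148), while CCNE1 fell by 1.64 ± 0.32 (adjusted p = 0.00460). CCND3 rose from HEs to HPCs, by 2.05 ± 0.22 in WT cells (adjusted p = 0.000906) and by 3.10 ± 0.22 in GATA2-/- cells (adjusted p = 0.000203), reaching 355 to 459 TPM. CDKN2D rose in both as well, and CCND1 fell in GATA2-/- cells by 2.11 ± 0.49 (adjusted p = 0.0245). Genotype comparisons called 0 of 12 (0.0186% of all genes in HEs and 0.0603% in HPCs).

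Factors that set or keep imprints were also read (13 listed, 11 tested). From GATA2-/- hESCs to HEs 1 of 11 rose and 2 fell, against 13.9% and 16.1% of all genes. The methyltransferase gene DNMT3B fell by 3.36 ± 0.21 (adjusted p = 1.24e-05), from 795 and 518 TPM to 60.6 and 62.9, and TRIM28, a corepressor that guards imprints, fell by 0.66 ± 0.20 (adjusted p = 0.0349). TET2, a demethylating enzyme gene, rose by 2.05 ± 0.28 (adjusted p = 0.000700). DNMT1, the maintenance methyltransferase gene, was at 100.5 to 147 TPM throughout and CTCF at 27.4 to 41.7. ZFP57, which protects imprints in early embryos, did not exceed 1.13 TPM. Between HEs and HPCs 0 of 11 passed in WT cells (9.91% of all genes) and 1 in GATA2-/- cells (12.7%). The 1 gene was TET3, which rose by 1.15 ± 0.30 (adjusted p = 0.0381). Genotype comparisons called 0 of 11 (0.0186% of all genes in HEs and 0.0603% in HPCs).

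For each tested gene, the gene with the most similar pattern was taken by Pearson's r of log2(TPM + 1) over the 10 libraries, among 11923 genes with a mean of at least 5 TPM. These were MAP3K3 for H19 (r = 0.992), CCDC92 for IGF2 (0.993), ZEB2 for CDKN1C (0.992), C7orf41 for DLK1 (0.991), NENF for MEG3 (0.875), ASS1 for SNRPN (0.986), ADD2 for PEG10 (0.992), LRRC8D for MEST (0.977) and TULP3 for GRB10 (0.968). The 10 libraries share 5 groups, so such values describe the order of the groups. MEG3 had the least close match, and none of the genes was matched by a neighbour from its own domain.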

How the data were processed

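RNA-Seq was measured in 12 H1 samples, of which the 10 with a table were analysed. The authors purified RNA with Trizol, made TruSeq libraries from 1 ug of total RNA, sequenced them on a MiSeq system, trimmed with Trimmomatic and mapped with Bowtie to hg19. The submitters' processing notes name Bowtie, RSEM, hg19 and mm10, without giving a role. The deposited unit is TPM per gene, computed by the authors with 2 decimals for 56266 Ensembl genes, and each library sums to 998299 to 999106. TPM keeps no depth, so the depth is unknown and precision was judged from the 2 replicates. Cuffdiff, which the study used, needs alignments and was not repeated.

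The low-value filter kept 21543 genes that reached 1 TPM in 2 or more libraries. A linear model of log2(TPM + 1) on the 5 groups, with a shared variance, was fitted by limma 3.58.1 (R 4.3.3) with moderated variances that follow a trend on mean level, and gave 7 comparisons. Benjamini-Hochberg adjusted p under 0.05 was the threshold. The procedure was tested on simulated data for GATA2-/- against WT HEs over 21543 genes, where it called 78 of 100 genes changed by 2 on the log2 scale, 95 of 100 changed by 4, and 11 others. The changed genes were drawn from those with a mean log2(TPM + 1) above 2, so these rates do not cover low genes such as MEG3. The genes and lists were chosen with earlier results of these data known. Named from the lists were all genes past the threshold between genotypes (there were none) and at most 3 in each direction per stage comparison whose libraries did not overlap. Other genes of a domain or list (IGF2-AS, INS, UBE3A, NDN, COPG2, PPP1R9A, RTL1, MEG8, MEG9, ZIM2, IGF1R, IGF2R, KCNQ1OT1, DNMT1, CTCF and ZFP57) were named for their position or function after their values were seen. Alternatives were another pseudocount, no filter, quantile normalization, rescaling without mitochondrial and globin genes, no trend, the compared libraries alone, a replicate block and each library left out. After seeing the data, a block for the header tag and a fit without the replicate 2 HPC libraries were added. Positions came from GENCODE v44 lifted to GRCh37, and tables and sequences were handled in Python 3.11.15.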

Additional observations from a re-analysis of the deposited data

Results flagged for a closer look

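PEG10 was below WT in both GATA2-/- HE libraries and above WT in both GATA2-/- HPC libraries, so that its genotype effects had opposite signs at the 2 stages. The difference of the effects from limma was 0.90 on the log2(TPM + 1) scale (unadjusted p = 0.0800, adjusted p = 0.876), which did not pass the threshold. The HPC values were all under 1 TPM (0.18 and 0.51 in WT, 0.61 and 0.80 in GATA2-/-), and within replicate numbers the GATA2-/- to WT ratio was 0.472 and 0.867 in HEs and 3.39 and 1.57 in HPCs.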

How the results depend on the processing

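Fitted with only the libraries of each comparison, limma called 0 of the 9 tested imprinted genes from HEs to HPCs in WT cells and 0 in GATA2-/- cells, and 0 genes of any kind in both of these comparisons and in both genotype comparisons, while hESCs against HPCs gave 4386 genes, against 6586. From hESCs to HEs it called 5 of the 9, against 7, without SNRPN and MEST. This alternative has fewer samples by construction. From WT HEs to WT HPCs the imprinted genes called were 3 with no filter, 3 without the trend and 2 without the replicate 2 HPC libraries, against 5. Over all genes, GATA2-/- against WT HEs gave 13 with no filter, 2 with a replicate block, 2 with a header tag block, 12 without the trend and 0 without the replicate 2 HPC libraries, against 4. GATA2-/- against WT HPCs gave 6 with a pseudocount of 0.1, 3 with a replicate block, 3 with a header tag block, 20 without the trend and 21 without the replicate 2 HPC libraries, against 13. That last alternative also left 908 genes in WT and 1514 in GATA2-/- cells from HEs to HPCs, against 2134 and 2745. The cause was not tested.

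With each library left out in turn, the imprinted genes called ranged from 2 to 5 from HEs to HPCs in WT cells, from 1 to 4 in GATA2-/- cells (1 without GATA2-/- HE replicate 2), from 7 to 8 from hESCs to HEs, and stayed at 6 from hESCs to HPCs and at 0 in both genotype comparisons and their difference. All genes called ranged from 0 to 1 between genotypes in HEs, 0 to 14 in HPCs, 849 to 2073 and 1257 to 2685 from HEs to HPCs in WT and GATA2-/- cells, 4075 to 6478 and 4180 to 6550 from hESCs, and 0 to 5 for the difference of genotype effects. Of the 63 fitted differences of imprinted genes, all 63 stayed on their side of the threshold with quantile normalization, the replicate block, the header tag block and the rescaling, and none reversed past it under any alternative run. Rescaling moved 11 of 50 group means by more than 1 SD. The replicate block pairs samples only by number: replicate differences of WT and GATA2-/- libraries correlated at 0.123 in HEs and 0.0551 in HPCs, and other pairs of groups at -0.0141 to 0.0317, so the numbers were not taken to pair the samples. With 2 libraries a group and no depth, low values such as MEG3 and PEG10 in HPCs have no counting error attached.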
